A study of Mus musculus with 8 samples.

Results

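Messenger RNA of sorted mouse cortical cells was sequenced after knockdown of Lockd, a long noncoding RNA, with a short hairpin RNA (shRNA). The comparison used 4 of the 8 libraries of the study, 2 labelled control and 2 labelled Lockd knockdown, chosen by those labels alone and described over every gene that could be tested. All 4 came from the brain cortex of wild-type embryos of the outbred ICR strain. A plasmid at 3 µg/µl was electroporated in utero into the lateral ventricle at E14.5 (embryonic day), and cells positive for green fluorescent protein (GFP) were collected by flow cytometry at E16.5. The labels name no difference between the groups other than the plasmid, either a control or one expressing the Lockd shRNA. Neither the hairpin's sequence nor the control insert is stated, nor which litters or how many embryos made up each library. A single hairpin plasmid is named, so an effect of that hairpin other than on Lockd cannot be told apart from an effect of Lockd. The other 4 libraries, from whole E13.5 cortex of wild type and PlyA-KI in the C57BL/6 strain, enter only where a response is compared between experiments.

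Radial glia line the ventricle of the embryonic cortex, divide there, and give rise to intermediate progenitors and neurons. A plasmid injected into the ventricle enters these dividing cells and is passed to their daughters, so cells sorted days later are a mixture of progenitors, young neurons on their way to the cortical plate, and neurons that have begun to extend axons. Lockd is transcribed from the region just downstream of Cdkn1b, the gene of the cyclin-dependent kinase inhibitor p27, which holds cells out of the cycle.

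Libraries held 12805874 and 14357950 counts in control and 13401208 and 15911118 in shRNA, and 13758 of 27178 listed genes passed the filter on low counts. Expression is expressed in CPM (a count divided by its library's total and rescaled), in which 3 counts correspond to 0.189 to 0.234 CPM. Replicates were not closer to each other than libraries of different groups. The Pearson correlation of log2 CPM across genes was 0.988 between the control libraries and 0.989 between the shRNA libraries, against 0.985 to 0.990 between groups, as a description of these 4 libraries. Of 10794 genes with a mean of 5 CPM or more, 51 differed by a log2 value of 1 or more between the control libraries, 32 between the shRNA libraries, and 10 between the group means. Cortical identity markers were high in every library, with Neurod2, a factor of excitatory neurons, at 1074 to 1264 CPM. Summed markers of microglia came to 84.7 and 37.3 CPM in control 1 and 2 and 61.1 and 71.1 CPM in shRNA 1 and 2. The Y-linked gene Eif2s3y ranged from 43.0 to 101 CPM across libraries and did not follow the groups. The choroid plexus marker Ttr was counted only in shRNA 1.

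Lockd (Entrez 381822, chr6:134929092-134951718, GRCm38) was at 8.90 and 7.80 CPM in control 1 and 2 and at 4.85 and 2.83 CPM in shRNA 1 and 2. Both shRNA libraries lay below both control libraries, and shRNA 2 was the lowest. The log2 fold change of −1.11 (SE 0.30) missed the threshold, with a Benjamini-Hochberg adjusted p = 0.254 in edgeR's quasi-likelihood test of all genes. Cdkn1b was at 319 and 367 CPM in control and at 318 and 346 CPM in shRNA, so its groups overlapped.

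Over all genes, transcripts of cell division and of MHC class I antigen presentation were lower in the shRNA libraries, and transcripts of synapses, ion channels, protocadherins and netrin, Slit and Robo guidance were mostly higher, each within a range that edgeR did not call. In edgeR 0 of 13758 genes (0.0%) had an adjusted p under 0.05, the smallest being 0.143. An unadjusted p under 0.05 was reached by 1033 genes (7.51%), of which 462 were higher (3.36% of all) and 571 lower (4.15%), and 688 would reach it with no effect. The Wald test of DESeq2 called 52 of the 8733 genes to which it gave an adjusted p (0.595%), 19 higher and 33 lower. The groups did not overlap, meaning that both shRNA libraries lay on one side of both control libraries after TMM scaling of library sizes, for 2330 higher (16.9%) and 2468 lower genes (17.9%). With 2 libraries a group such separation is common with no effect, so counts within lists are to be read against these shares. Counts within lists at an unadjusted p under 0.05 are likewise to be read against 3.36% higher and 4.15% lower. The log2 fold change was above 0 for 49.9% of genes and below 0 for 50.1%, and 158 (1.15%) had an absolute value of 1 or more. Genes in lists of the cell cycle and of cell type markers numbered 337, of which 18 were higher and 140 lower at an unadjusted p under 0.05. The 13421 genes outside those lists split evenly, with 444 higher and 431 lower, and 29 of the 52 DESeq2 calls were among them.

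**Figure D1:**
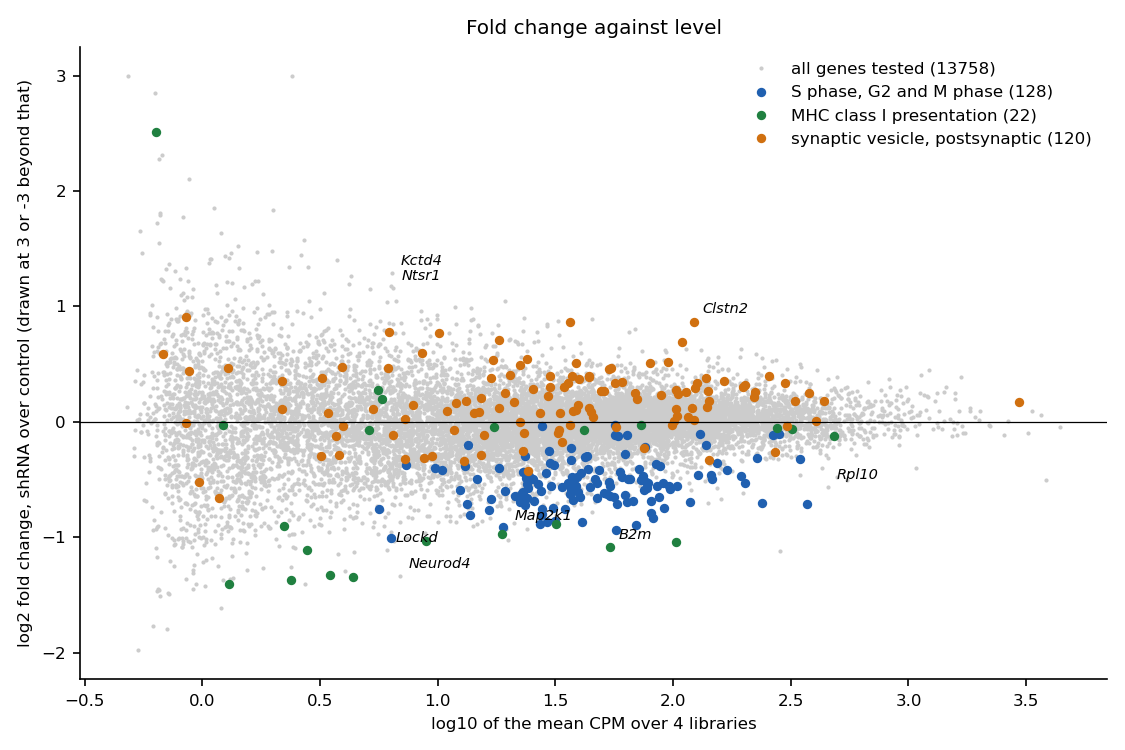
Log2 fold change of shRNA over control (vertical axis) against the log10 of the mean CPM over 4 libraries (horizontal axis) for 13758 genes in grey, with 3 groups of listed genes in colour. The S, G2 and M phase genes lie below 0 at every level, and most synaptic genes lie above it.

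Genes of the dividing cell made the most uniform group. All 67 tested genes of G2 and M phase were lower. Their log2 fold changes had a median of −0.59, against −0.00 for all genes tested. Groups did not overlap for 65 of them, and 60 were at an unadjusted p under 0.05. The shares of all genes on the lower side were 17.9% and 4.15%. The range ran from −0.91 for Ndc80, a kinetochore subunit, to −0.10 for Bub3 of the spindle checkpoint, and the exceptions to separated groups were G2e3 and Psrc1. All 61 S phase genes were lower as well (median −0.49), 54 with separated groups and 46 at an unadjusted p under 0.05. DESeq2 called 14 genes of the first list and 5 of the other. In bulk RNA of sorted cells, fewer dividing cells and less of these transcripts per dividing cell cannot be told apart.

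Ube2c, which encodes the ubiquitin-conjugating enzyme that works with the anaphase-promoting complex, was at 99.6 and 106 CPM in control and at 66.1 and 51.8 CPM in shRNA. Mki67, the gene of the proliferation antigen Ki-67, was at 426 and 498 CPM in control and at 262 and 298 CPM in shRNA. Cdca7, a chromatin factor that recruits the remodeller encoded by Hells, was at 80.2 and 70.4 CPM in control and at 41.3 and 36.5 CPM in shRNA. In all of these the lower control library lay well above the higher shRNA library, at log2 fold changes of −0.79 (SE 0.15), −0.71 (SE 0.14) and −0.94 (SE 0.15). Clspn and Ticrr, which act in the replication checkpoint and in origin firing, lay at −0.86 (SE 0.18) and −0.81 (SE 0.17). Several genes on none of the lists, chosen for their small p or large fold change, were also lower. Stil, a centriole duplication gene, was at 25.8 and 27.7 CPM in control and at 12.8 and 13.2 CPM in shRNA. Mybl2, the B-Myb factor of the complex that drives late cell cycle genes, was at 27.3 and 27.6 CPM against 14.9 and 14.6 CPM. Their libraries were tight within each group, and the log2 fold changes were −1.02 (SE 0.18) and −0.88 (SE 0.17). Arhgap11a, a GTPase-activating protein with a role in basal progenitors, lay at −0.67 (SE 0.14), Spag5, a spindle protein, at −0.63 (SE 0.14), and Eme1, a structure-specific endonuclease subunit, at −1.04 (SE 0.23). Pimreg, Fam111a and Slfn9 lay at −0.72, −1.04 and −0.90. The adjusted p of these genes ran from 0.143 to 0.198 (edgeR), and DESeq2 called Stil, Mybl2, Arhgap11a, Spag5 and Pimreg of those on no list.

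Promoters of late cell cycle genes are known to carry pairs of a CHR element and CCAAT boxes, and those of S phase genes E2F sites. RefSeq promoter sequences (GRCm38.p6, 250 bases before the annotated start) were at hand for 59 of the 67 G2 and M phase genes. The letters TTTGAA or TTCGAA (CHR) stood on either strand in 39.0% of the 59, against 17.4% of 27025 promoters, and CCAAT in 74.6% against 34.5%. Both together stood in 33.9%, or 20 of 59, against 6.21% of all promoters. All promoters include those of genes that were not tested. Over the 10512 tested genes with a promoter sequence the shares were 11.8% for CHR, 36.7% for CCAAT and 4.79% for both. For S phase genes only 46 of 61 had a promoter sequence, a smaller part than of the other lists described here. The comparison of E2F sites was therefore left void. An E2F site was taken as TTGGCGC or any variant of it that reads TTCGCGC, one that reads TTCCCGC, or lastly TTGCCGC on either strand, and stood in 7.97% of all promoters. Such a site stood in 14.5% of the promoters of tested genes. For MHC class I presentation 18 of 22 genes had a promoter sequence. The core of an interferon-stimulated response element (ISRE, read as TTTC, any 2 bases, TTTC) stood in 3 of the 18 (16.7%) against 3.04% of all promoters. Its share over tested genes was 2.33%. CCAAT stood in 13 of the 18 (72.2%), so its high share was not particular to G2 and M phase genes. A CHR stood in 2 of the 18 (11.1%), no larger a share than the 17.4% of all promoters. A match of letters is a description and not evidence of binding. The 4 promoters printed are those of 3 genes lower in the shRNA libraries, 1 on the G2 and M phase list and 2 described with it (Ube2c at chr2:164769679-164769928, plus strand; Arhgap11a at chr2:113848662-113848911, minus strand; Zfp367 at chr13:64153200-64153449, minus strand) and of the gene with the smallest p (B2m at chr2:122147437-122147686, plus strand). They read 5′ to 3′ towards the gene, with every motif in capitals on whichever strand it was found:
Ube2c: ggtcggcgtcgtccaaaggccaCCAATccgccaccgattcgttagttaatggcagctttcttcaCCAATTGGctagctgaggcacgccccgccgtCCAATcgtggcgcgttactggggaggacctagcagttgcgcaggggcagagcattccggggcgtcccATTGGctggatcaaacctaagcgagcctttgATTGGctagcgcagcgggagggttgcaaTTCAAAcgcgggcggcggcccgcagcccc
Arhgap11a: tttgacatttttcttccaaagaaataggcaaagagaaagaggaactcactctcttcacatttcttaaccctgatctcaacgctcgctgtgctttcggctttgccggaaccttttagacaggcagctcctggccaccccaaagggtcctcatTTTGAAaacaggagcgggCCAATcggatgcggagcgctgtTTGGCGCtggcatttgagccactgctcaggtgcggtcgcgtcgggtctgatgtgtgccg
Zfp367: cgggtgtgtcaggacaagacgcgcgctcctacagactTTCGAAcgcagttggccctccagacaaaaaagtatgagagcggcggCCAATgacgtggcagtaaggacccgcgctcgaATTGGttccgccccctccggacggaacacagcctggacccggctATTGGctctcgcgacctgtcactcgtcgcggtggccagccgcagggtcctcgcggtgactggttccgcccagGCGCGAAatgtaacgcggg
B2m: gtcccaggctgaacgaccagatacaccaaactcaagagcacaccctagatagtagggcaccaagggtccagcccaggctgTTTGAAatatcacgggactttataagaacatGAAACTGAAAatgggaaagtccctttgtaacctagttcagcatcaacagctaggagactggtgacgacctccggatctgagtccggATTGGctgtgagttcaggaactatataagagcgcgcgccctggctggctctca
The Ube2c promoter holds 6 CCAAT boxes counted over both strands, of which a pair on opposite strands overlap, and a CHR that begins 29 bases before the start. The Arhgap11a promoter holds all 3 cell cycle motifs, a CHR at 99, a CCAAT box at 81 and an E2F site at 59 bases before the start. In the promoter of Zfp367, a zinc finger gene at 33.5 and 29.8 CPM in control and at 16.7 and 16.2 CPM in shRNA (log2 fold change −0.93, SE 0.17), the E2F site begins 19 bases before the start. The B2m promoter also holds a CHR, at 170 bases before the start, besides the ISRE core at 139 and a CCAAT box at 53.

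**Figure D2:**
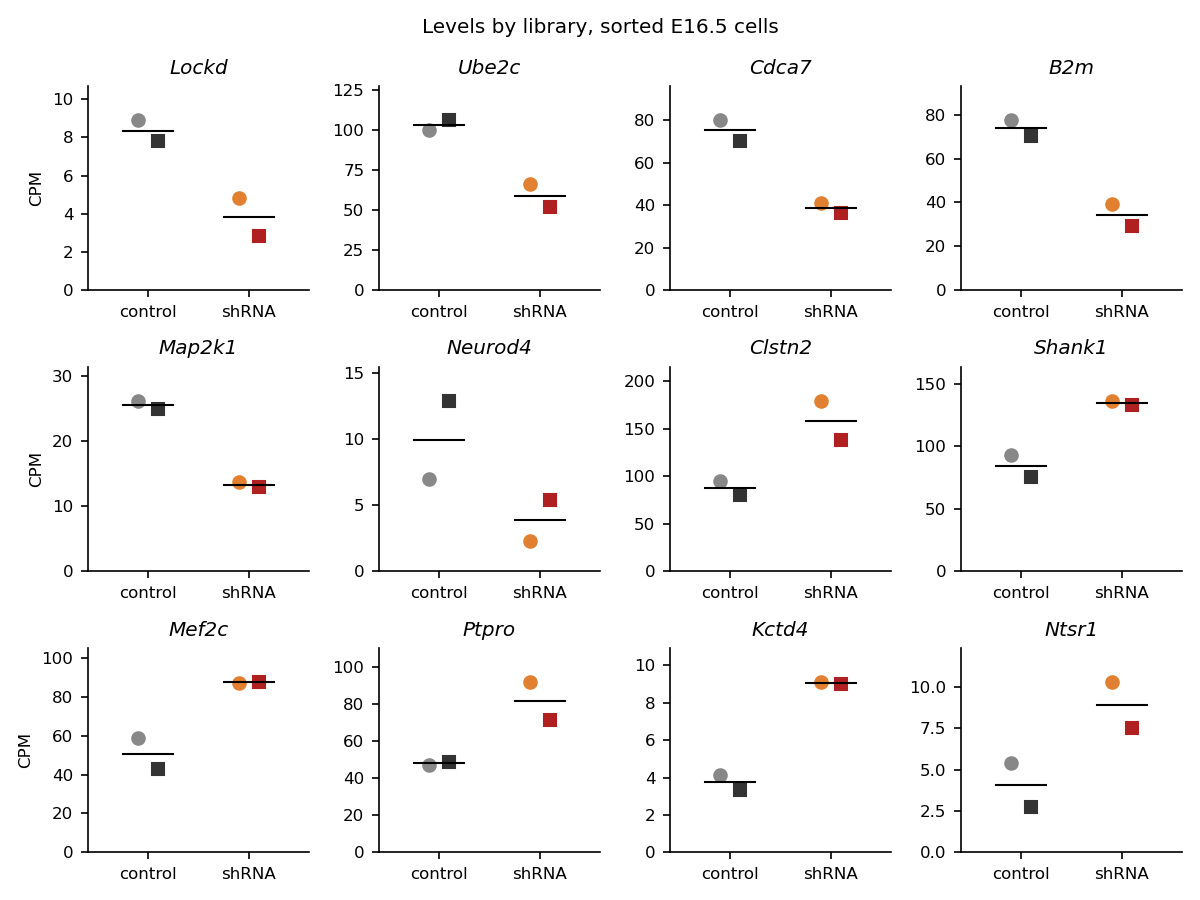
CPM (vertical axes, from 0) of 12 genes in control 1 (grey circle), control 2 (black square), shRNA 1 (orange circle) and shRNA 2 (red square), with the group mean as a line. The groups do not overlap for any of the 12, while the gap between replicates differs between genes, from 87.2 and 87.5 CPM for Mef2c in shRNA to 7.03 and 12.9 CPM for Neurod4 in control.

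Antigen presentation by MHC class I held the genes with the 2 smallest p-values of all, B2m and H2-D1. These molecules show peptides cut by the proteasome at the cell surface. Of 22 tested genes 19 were lower (median −0.51), 11 with separated groups, against 17.9% of all genes on the lower side. Of the lower genes 11 were at an unadjusted p under 0.05, and H2-T24 was the 1 member higher at that p. B2m, the light chain shared by all class I molecules, was at 77.5 and 70.3 CPM in control and at 39.5 and 29.4 CPM in shRNA (log2 fold change −1.09, SE 0.17). H2-D1, a heavy chain, was at 154 and 124 CPM in control and at 77.3 and 55.7 CPM in shRNA. H2-Q4, another heavy chain, was at 30.5 and 19.6 CPM in control and at 13.1 and 12.1 CPM in shRNA. For all of them shRNA 2 was the lowest library and control 1 the highest. The peptide transporter gene Tap1, added after its values were seen, followed the same order at 15, 9.12, 6.64 and 5.03 CPM. H2 genes resemble one another closely, so reads may have been split between them. The chaperones that load class I molecules and also serve the whole secretory pathway lay near 0, at −0.12 for Calr, −0.06 for Canx and −0.05 for Pdia3, all with overlapping groups and also chosen after their values were seen. DESeq2 called B2m, H2-D1, H2-K1 and H2-Q4, and gave 12 of the 22 no adjusted p. The 39 tested genes of the interferon response and RNA sensing, which share regulators with class I genes, were lower for 35 (median −0.32). Only 8 of the 39 had separated groups, near the share of all genes on the lower side (17.9%). Only 1 was at an unadjusted p under 0.05. Their median deviation from the mean of the 4 libraries was 0.45 in control 1, −0.09 in control 2, 0.03 in shRNA 1 and −0.29 in shRNA 2, so control 2 and shRNA 1 were out of order. Without control 1 the median was −0.02. Microglia, which carry class I molecules, had their lowest summed markers in control 2, and the part of microglia or of control 1 in the class I values was not tested.

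Markers of progenitors were lower, by less than the cell cycle genes for radial glia. All 24 tested genes of intermediate progenitors and of the proneural program were lower (median −0.41), 18 with separated groups and 14 at an unadjusted p under 0.05. Of all genes, 17.9% were separated on the lower side and 4.15% were lower at that p. Neurod4, a proneural factor, had the largest log2 fold change of the list, −1.34 (SE 0.38), from 7.03 and 12.9 CPM in control and 2.31 and 5.41 CPM in shRNA, where the spread within a group was nearly as wide as the gap between groups. Chd7, a chromatin remodeller, was at 134 and 154 CPM in control and at 95.4 and 93.7 CPM in shRNA. Of 31 radial glia genes 26 were lower (median −0.21, but −0.10 without shRNA 2 and −0.13 without control 1). Of those, 17 had separated groups, against 17.9% of all genes on the lower side, and 10 were at an unadjusted p under 0.05. Prom1, a protein of the apical membrane, lay at −0.58 (SE 0.14), the Notch ligand gene Dll1 at −0.42 (SE 0.14) and Pax6 at −0.39 (SE 0.13). Of the 31, 13 had overlapping groups, among them Fabp7, Hes1, Hes5 and Lhx2. Fabp7 was at 242 and 259 CPM in control and at 263 and 215 CPM in shRNA. The highest member was Ptprz1 at 0.22. Members without a low p were named after their values were seen. All 8 tested genes of oligodendrocyte precursors were lower (median −0.68). The 12 listed markers summed to 93.2 and 104 CPM in control and to 70.2 and 59.2 CPM in shRNA. Olig2, a factor of that lineage, was at 18.4 and 21.6 CPM in control and at 13.1 and 8.80 CPM in shRNA. The listed markers that failed the filter had few counts and did not fall together. Sox10 was at 8 and 9 counts in control and at 7 and 15 counts in shRNA. Gpr17 was at 0 and 2 counts against 4 and 2, and Lhfpl3 at 2 and 2 against 3 and 4. Nkx2-2 was lower, at 2 and 4 counts against 1 and 0.

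Hedgehog signalling acts through the receptor Ptch1, the transducer Smo and the GLI transcription factors, and is used by cortical progenitors. Of 16 tested genes 14 were lower (median −0.32, and −0.21 without shRNA 2). Groups were separated for 10, against 17.9% of all genes on the lower side. An unadjusted p under 0.05 was reached by 8, against 4.15% of all genes on the lower side. Gli2 was at 96.0 and 102 CPM in control and at 79.7 and 61.6 CPM in shRNA, a log2 fold change of −0.48 (SE 0.15). Gli3, which mostly acts as a repressor, lay at −0.37 (SE 0.13), the co-receptor gene Boc at −0.35 (SE 0.13) and Evc, a ciliary gene, at −0.55 (SE 0.22). None passed over all genes in edgeR (adjusted p 0.325 to 0.536) or in DESeq2. Notch pathway genes were lower for 19 of 29 (median −0.14, and −0.06 without control 1), and Wnt pathway genes were split, 23 higher and 20 lower (median 0.00). SOX, FOX and TEAD transcription factor genes were split, 14 higher and 20 lower (median −0.05), and of 54 homeobox genes 35 were lower (median −0.10, and −0.03 without control 2). The members of the smallest p were Sox6 at −0.47 (SE 0.13) in the first list and Zeb1 at −0.52 (SE 0.14) in the other.

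**Figure D3:**
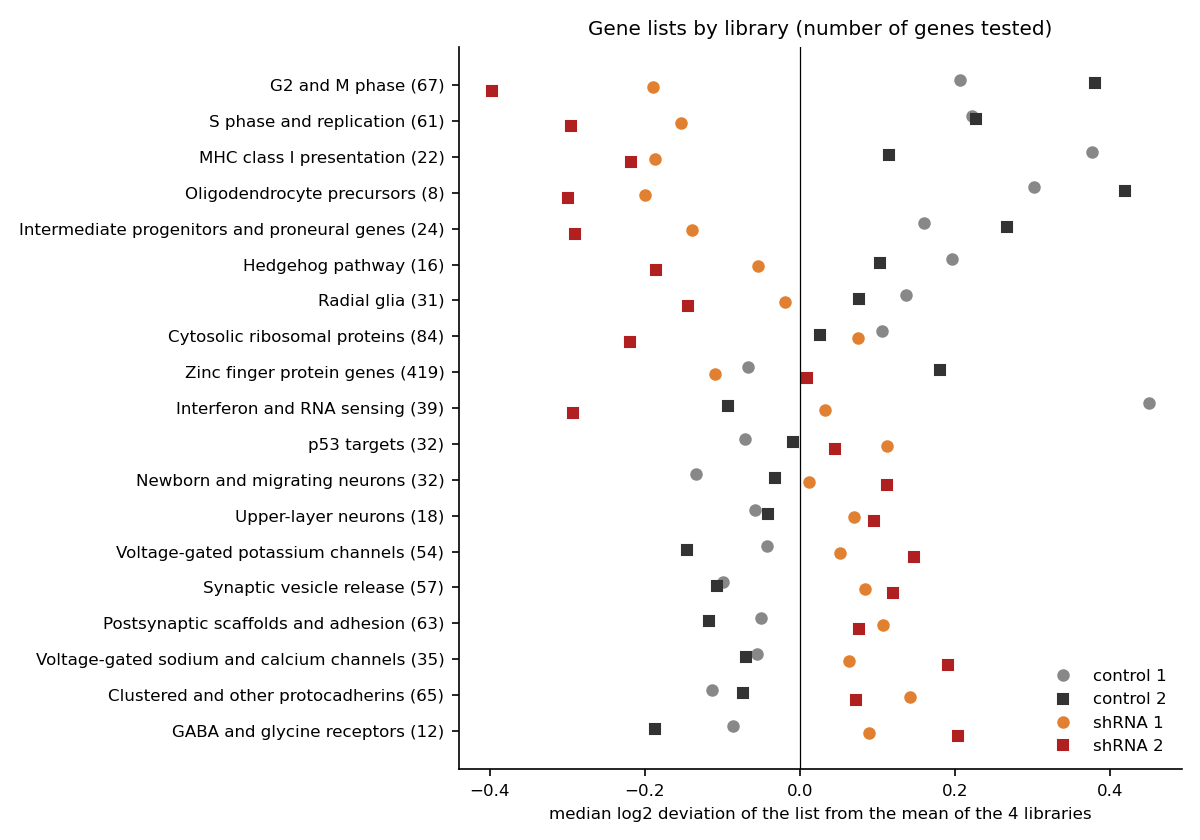
Median, over the tested genes of a list, of the log2 deviation from the mean of the 4 libraries (horizontal axis), drawn for each library and 19 lists. The cell cycle lists place both control libraries to the right of both shRNA libraries, synaptic and channel lists place them to the left, and the interferon, ribosomal protein and zinc finger lists interleave.

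On the other side, genes of several neuronal families were mostly higher, by smaller folds. In bulk RNA of sorted cells, a larger share of neurons and more of these transcripts per neuron cannot be told apart. That holds for the neuronal lists that follow too. Other families of neuronal contact were split, with 10 higher and 12 lower of 22 ephrin and Eph receptor genes (median −0.05) and 11 higher and 15 lower of 26 cadherin and catenin genes (median −0.02), both with overlapping libraries. Of 63 tested postsynaptic scaffold and adhesion genes 47 were higher (median 0.18), 26 with separated groups, against 16.9% of all genes on the higher side. Of the 47, 12 were at an unadjusted p under 0.05, and no member was lower at that p. Of 57 genes of synaptic vesicle release 44 were higher (median 0.18, and 0.12 without shRNA 2). Of those, 28 had separated groups, against 16.9% of all genes on the higher side, and 16 were at an unadjusted p under 0.05. Clstn2, a postsynaptic calsyntenin, was at 95.5 and 80.2 CPM in control and at 179 and 138 CPM in shRNA (log2 fold change 0.87, SE 0.15). Shank1, a scaffold of excitatory synapses, was at 93.2 and 75.4 CPM in control and at 136 and 133 CPM in shRNA (0.69, SE 0.14). DESeq2 called both. Camk2b, a subunit of the synaptic calcium-dependent kinase, was at 34.1 and 18.1 CPM in control and at 52.2 and 41.4 CPM in shRNA. Its groups were separated although its control libraries differed almost as much as the groups did. Syn1, which tethers vesicles, was at 66.8 and 65.7 CPM in control and at 95.5 and 90.6 CPM in shRNA (0.51, SE 0.13). Syt16 and Syt5, of the synaptotagmin family, lay at 0.54 and 0.51.

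Channel and receptor genes were mostly higher too, with few single genes standing out. At an unadjusted p under 0.05, 3.36% of all genes were higher and 4.15% lower. Voltage-gated sodium and calcium channel genes were higher for 27 of 35 (median 0.20, and 0.34 without shRNA 1), 8 of them at an unadjusted p under 0.05 and none lower at that p. Cacna1c, the L-type calcium channel pore, was at 43.5 and 48.1 CPM in control and at 59.6 and 68.0 CPM in shRNA. Potassium channel genes were higher for 37 of 54 (median 0.17, and 0.10 without shRNA 2 and 0.28 without control 1), with 7 higher and 3 lower at an unadjusted p under 0.05. Kcng3, a modifying subunit of these channels, had the largest log2 fold change of the list, 2.11 (SE 0.60), at 0.234 and 0.418 CPM in control, near the level of 3 counts, and 1.49 and 1.38 CPM in shRNA. GABA and glycine receptor genes were higher for 11 of 12 (median 0.24, and 0.14 without shRNA 2), with 1, Gabra2, at an unadjusted p under 0.05. Ionotropic glutamate receptor genes were higher for 14 of 16 (median 0.22), with 0 at an unadjusted p under 0.05 in edgeR and 0 called by DESeq2. Gria2 in particular was at 834 and 1121 CPM in control and at 967 and 1597 CPM in shRNA, so its groups overlapped. Genes of calcium and cAMP signalling were higher for 69 of 103 (median 0.07, and 0.05 without shRNA 2). Among them Ryr3, a calcium release channel, was at 23.6 and 18.4 CPM in control and at 33.4 and 41.2 CPM in shRNA, and Itpr1, the inositol trisphosphate receptor, at 133 and 132 CPM against 173 and 182 CPM. DESeq2 called Ryr3.

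Protocadherins, the cell surface proteins that give neurons their individual identity, were higher for 57 of 65 tested genes (median 0.21). Only 2 of the 57 were at an unadjusted p under 0.05, Pcdhb22 (0.76, SE 0.31) and Pcdhb18 (0.64, SE 0.27), both at 3.20 to 7.86 CPM. The lower gene with the smallest p was Pcdh18, outside the gene clusters, at −0.39 (SE 0.16), from 42.2 and 43.4 CPM in control and 32.8 and 31.7 CPM in shRNA. Genes of the clusters share exons or resemble one another closely, so their counts are uncertain one by one, and DESeq2 gave 54 of the 65 no adjusted p. Netrin, Slit and Robo guidance genes were higher for 16 of 22 (median 0.16). Robo1, a Slit receptor, was at 112 and 116 CPM in control and at 172 and 160 CPM in shRNA (0.56, SE 0.13) and was called by DESeq2. Semaphorins, plexins and neuropilins were higher for 18 of 29 (median 0.08, and 0.14 without shRNA 2). The leading gene there, Sema6b, a transmembrane semaphorin, was at 37.5 and 26.7 CPM in control and at 68.1 and 49.4 CPM in shRNA. Immunoglobulin adhesion molecules were higher for 24 of 38 (median 0.15), with Alcam at 0.63 (SE 0.15), Dscam at 0.38 (SE 0.13) and Cntn2 at 0.39 (SE 0.14).

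Genes of neuronal identity and of the cytoskeleton were higher in part. Microtubule-associated and stathmin genes were higher for 41 of 54 (median 0.15, and 0.08 without control 2), 11 of them at an unadjusted p under 0.05. Stmn2, a microtubule destabiliser of growth cones, was at 225 and 209 CPM in control and at 320 and 300 CPM in shRNA, and Mapt, the gene of tau, at 237 and 212 CPM against 338 and 303 CPM. Both were called by DESeq2. Of 32 genes of newborn and migrating neurons 20 were higher (median 0.14, and 0.04 to 0.23 without 1 library, lowest without shRNA 2 and highest without control 2), of 18 upper-layer genes 11 (median 0.18, and 0.09 without shRNA 2), and of 19 deep-layer genes 10 (median 0.02, groups overlapping). Mef2c, a transcription factor of maturing neurons, was at 58.7 and 42.6 CPM in control and at 87.2 and 87.5 CPM in shRNA (0.80, SE 0.16).

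Several further genes were higher. Ptpro, a receptor tyrosine phosphatase, was at 47.1 and 49.0 CPM in control and at 92.0 and 71.5 CPM in shRNA (0.78, SE 0.15). Arpp21, a phosphoprotein of the cAMP pathway that binds RNA, was at 20.3 and 22.1 CPM in control and at 37.5 and 37.3 CPM in shRNA (0.83, SE 0.17). Lonrf2, a ring finger gene, was at 25.4 and 20.8 CPM against 45.1 and 38.4 CPM (0.87, SE 0.18). All 3 had separated groups and were called by DESeq2. Dab1, the adaptor of the reelin pathway that positions migrating neurons, was at 127 and 127 CPM in control and at 180 and 190 CPM in shRNA. Abr and Btbd11 lay at 0.62 (SE 0.14) and 0.76 (SE 0.17), and DESeq2 called all of them. Rsph3a, a radial spoke gene of motile cilia, lay at 0.98 (SE 0.21) and had no adjusted p in DESeq2. The largest log2 fold change above 0 at a mean of 5 CPM or more belonged to Kctd4. It was at 4.14 and 3.34 CPM in control and at 9.10 and 8.99 CPM in shRNA (1.29, SE 0.27). Ntsr1, a neurotensin receptor known as a marker of corticothalamic neurons, was at 5.39 and 2.72 CPM against 10.3 and 7.54 CPM (1.16, SE 0.33). The deep-layer list was split, 10 higher and 9 lower, and its lowest gene was Foxp2 at −0.55, named after its value was seen. Tnr, a matrix glycoprotein, and Tmtc1 lay at 1.15 (SE 0.33) and 1.04 (SE 0.30). Hba-a1, an alpha globin, lay at 1.18 (SE 0.42), but shRNA 1 at 4.18 CPM was level with control at 3.90 and 3.97 CPM, and shRNA 2 alone was high at 13.3 CPM.

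**Figure D4:**
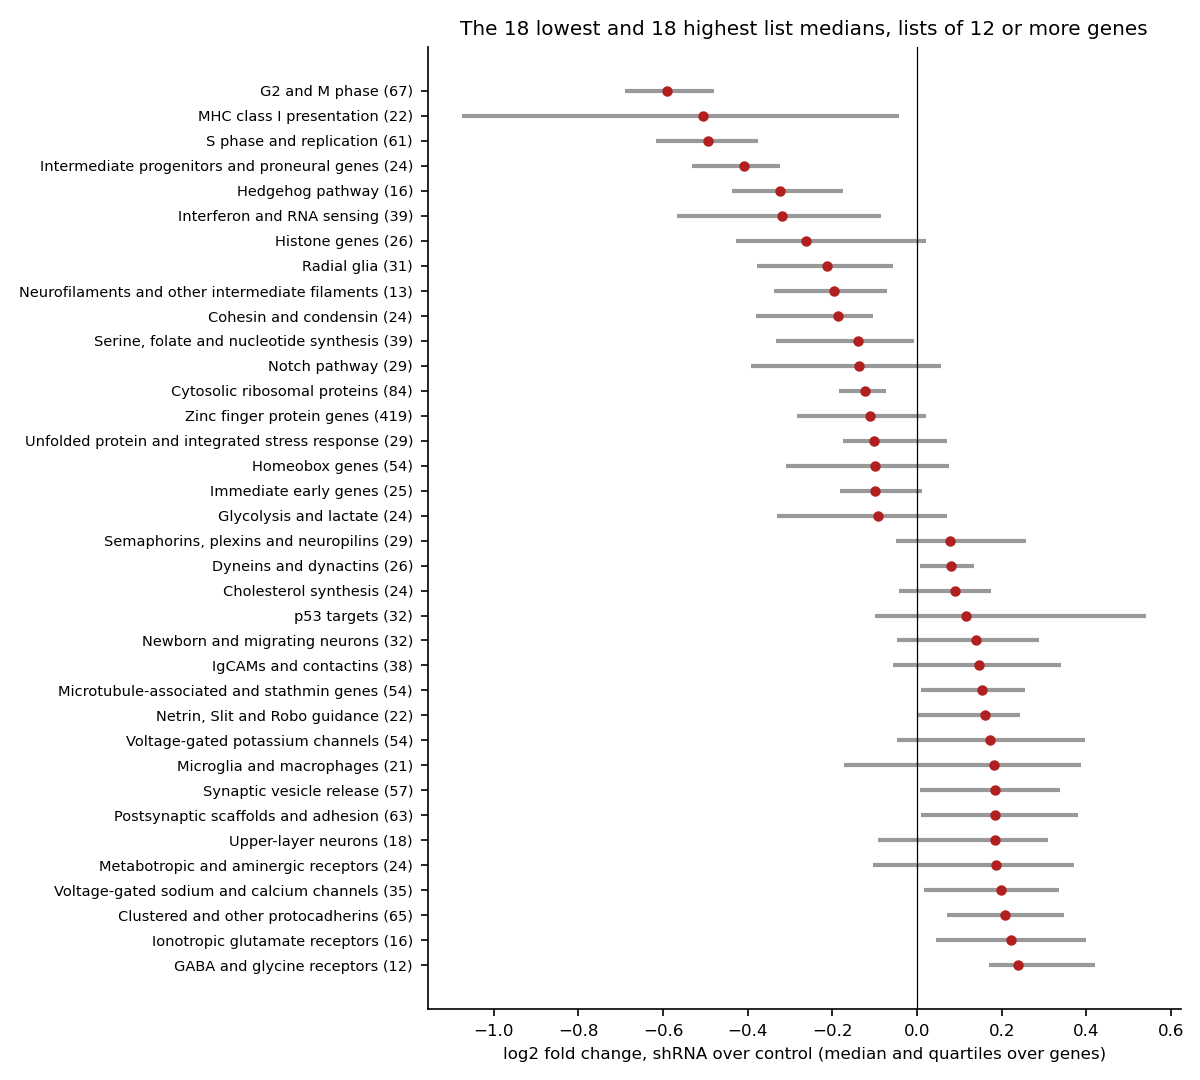
Median (point) and quartiles (bar) over genes of the log2 fold change of shRNA over control, for the 18 lists with the lowest and the 18 with the highest medians among 88 lists of 12 or more tested genes. The lowest medians belong to G2 and M phase at −0.59 and MHC class I at −0.51, and the highest to GABA and glycine receptors at 0.24, with quartiles that cross 0 for many lists in between.

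In some families and complexes, a member used by dividing cells was set beside one used by neurons, in pairs chosen with their values known. Kinesins are motors of the spindle and of axonal transport. The 8 kinesins on the G2 and M phase list were all lower (median −0.61), and of the other 34 kinesins and light chains 23 were higher (median 0.10). Kif15, a spindle motor called by DESeq2, was at 55.4 and 62.0 CPM in control and at 36.2 and 37.3 CPM in shRNA. Kif5a, a neuronal transport motor named after its value was seen, was at 237 and 225 CPM in control and at 281 and 313 CPM in shRNA (0.38, SE 0.13). Its close relatives Kif5b and Kif5c, also named after their values were seen, lay at −0.08 and 0.00, with overlapping groups.

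The BAF chromatin remodelling complex exchanges subunits as progenitors become neurons. Dpf1 and Actl6b, subunits of the neuronal form, lay at 0.53 (SE 0.14) and 0.44 (SE 0.13), from 83.4 and 71.0 CPM in control and 119 and 102 CPM in shRNA for Dpf1. Their counterparts in progenitors, named after their values were seen, lay at −0.06 (SE 0.13) for Dpf2 and −0.14 (SE 0.13) for Actl6a, while Phf10, the other counterpart of Dpf1, lay on the same side as Dpf1 at 0.15 (SE 0.14). Ss18l1 of the neuronal form lay at 0.26 (SE 0.13) and Ss18 at −0.23 (SE 0.14). Over the whole list of SWI/SNF and CHD remodellers the median was −0.01. Enolases showed a like split, with Eno1 at −0.33 (SE 0.13) and the neuron-specific Eno2 at 0.41 (SE 0.17). Of the alpha catenins, Ctnna1 was at 118 and 121 CPM in control and at 93.0 and 83.0 CPM in shRNA, and the neural Ctnna2 at 176 and 197 CPM against 221 and 240 CPM. Eef1a2, a translation elongation factor of neurons and muscle, lay at 0.60 (SE 0.21), and the general form Eef1a1 at −0.09 (SE 0.14), with groups that overlapped after TMM scaling. Dync1i1, a neuronal dynein chain, lay at 0.90 (SE 0.24), and at 0.56 to 1.37 without 1 library. It was at 21.0 and 11.8 CPM in control and at 33.8 and 26.6 CPM in shRNA. Its relative Dync1i2, named after its value was seen, lay at 0.04 (SE 0.14), with overlapping groups. Nde1, a dynein regulator needed by dividing progenitors, lay at −0.64 (SE 0.15). None of these genes but Kif15 was called by either tool (edgeR adjusted p 0.211 to 0.999), and no difference between partners was tested.

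**Figure D5:**
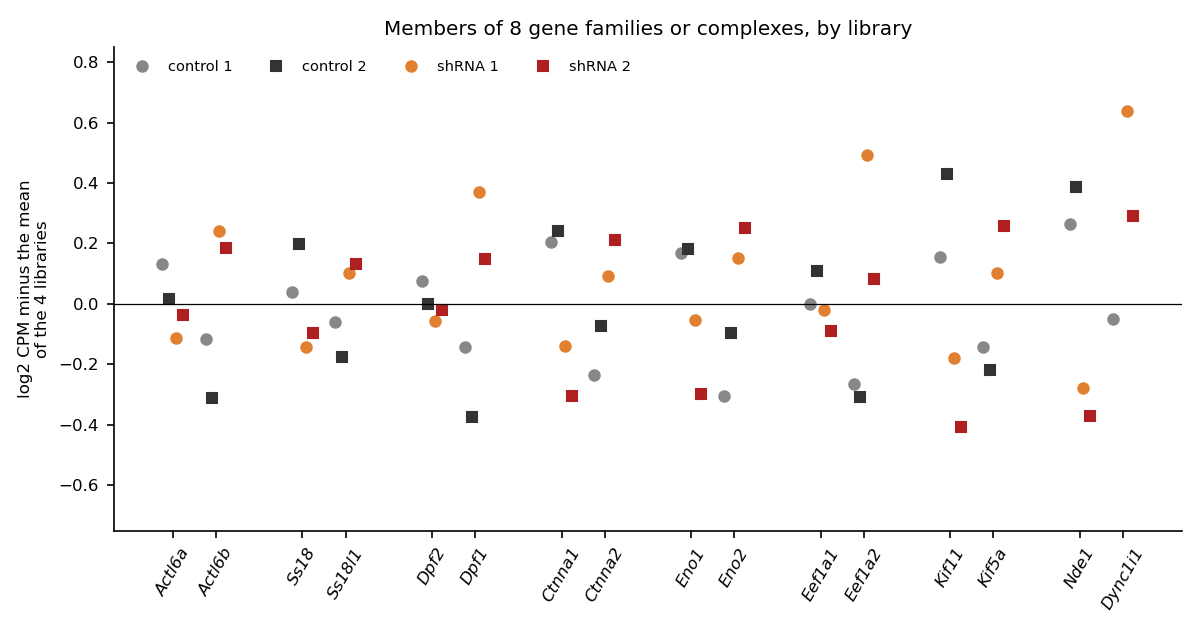
Log2 CPM minus the mean of the 4 libraries (vertical axis) for 16 genes of 8 families or complexes, in control 1 (grey circle), control 2 (black square), shRNA 1 (orange circle) and shRNA 2 (red square). The pairs were chosen with their values known, so the shared pattern follows from that choice. Relatives with overlapping groups, such as Kif5b, Kif5c and Dync1i2, are not drawn. In each pair the gene on the right has its shRNA libraries above its control libraries. The gene on the left has them below, for Eef1a1 by a margin that TMM scaling closes. Control 2 of Dync1i1, at −0.88, lies below the drawn axis.

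Targets of p53, which arrests or kills damaged cells, lay in both directions. Of 32 tested genes 20 were higher and 12 lower (median 0.11, and 0.06 without control 1), with 9 and 3 at an unadjusted p under 0.05. The shares of all genes at that p were 3.36% higher and 4.15% lower. Cdkn1a, the gene of the cycle inhibitor p21, was at 11.0 and 10.3 CPM in control and at 21.5 and 16.3 CPM in shRNA (0.84, SE 0.21). Dglucy was at 2.66 and 2.44 CPM in control and at 6.64 and 5.47 CPM in shRNA (1.26, SE 0.31), and Phlda3, an inhibitor of the kinase Akt, at 4.92 and 3.13 CPM against 10.6 and 5.78 CPM. The cell death gene Bbc3, named after its value was seen, lay at 0.69 (SE 0.23). The lower members included Ccnd1, a cyclin of G1, and Btg2, an antiproliferative gene of cortical progenitors, at −0.54 (SE 0.15) and −0.55 (SE 0.15). DESeq2 called 0 of the 32 and gave 10 no adjusted p.

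Some single genes stood apart from their families. Map2k1, which encodes the kinase MEK1 upstream of ERK, was at 26.2 and 25 CPM in control and at 13.7 and 13 CPM in shRNA (−0.93, SE 0.18, called by DESeq2). Its paralogue Map2k2, named after its value was seen, was at 153 and 106 CPM in control and at 169 and 117 CPM in shRNA, with overlapping groups, and the 56 genes of FGF and ERK signalling had a median of −0.02. Psmd6, a lid subunit of the proteasome, was at 120 and 119 CPM in control and at 76.9 and 81.2 CPM in shRNA (−0.58, SE 0.13, called by DESeq2). Of the 38 proteasome genes 30 were higher (median 0.07), but their libraries overlapped and the median was −0.03 without shRNA 1. The lowest of the 38 was Psmb9 at −1.41, named after its value was seen and also on the MHC class I list. Rpl10, a ribosomal protein gene, was at 532 and 559 CPM in control and at 367 and 363 CPM in shRNA (−0.56, SE 0.13, called by DESeq2). Ribosomal protein genes as a list were lower for 77 of 84 (median −0.12), but shRNA 1 lay with the controls and shRNA 2 below them, and Rpl10 was the 1 member at an unadjusted p under 0.05. Pseudogene copies of ribosomal protein genes share sequence with them, so these counts are uncertain. Fn1, fibronectin, was at 163 and 144 CPM in control and at 233 and 238 CPM in shRNA (0.63, SE 0.13), while the 75 genes of collagens, laminins and proteoglycans had a median of −0.04. Tpm4, a tropomyosin, lay at −0.48 (SE 0.13). Of imprinted genes 24 of 33 were higher (median 0.07), whereas H19, a long noncoding RNA, was at 24.8 and 18.4 CPM in control and at 11.3 and 12.6 CPM in shRNA.

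Many families lay near the median of all genes. The median was 0.00 for small RNA machinery, −0.03 for ribosome biogenesis, −0.02 for translation factors, 0.01 for nuclear-encoded respiratory chain genes, 0.02 for autophagy and −0.00 for mitochondrially encoded genes, all with overlapping libraries. Zinc finger protein genes were lower for 294 of 419 (median −0.11), but their libraries interleaved, with control 2 high at 0.18 and control 1 at −0.07. Over the 88 lists of 12 or more genes, the medians by library did not overlap for 26 higher and 16 lower lists and overlapped for 46. Of single genes, 34.9% had groups that did not overlap. The lists share genes and were drawn up with earlier results known, so their count is a description and no measure of breadth. Genes of 200 kb or more had a median of 0.06 against −0.01 for genes under 5 kb, and across 13403 genes the Spearman correlation of span with log2 fold change was 0.0599, as a description. Medians by chromosome ran from −0.04 on chromosome 3 to 0.03 on chromosome 7. The 29 genes within 5 Mb of Lockd on chromosome 6 had a median of −0.04, against −0.01 for the other 610 on that chromosome.

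The knockdown response was set beside that of PlyA-KI against wild-type E13.5 cortex, an experiment that shares no library with it but differs in strain, stage and preparation. The median log2 fold change of G2 and M phase genes was −0.59 after the shRNA and −0.13 in PlyA-KI, and that of MHC class I genes −0.51 and −0.06. Synaptic vesicle genes lay at 0.18 and 0.16, protocadherins at 0.21 and 0.19, and ribosomal protein genes at −0.12 and 0.19. Those differences of lists were not tested. In a test of the difference gene by gene, edgeR called 2 of 15641 genes (0.0128%), Lockd and Erdr1. Fn1 missed that test at 0.63 against −0.47 (adjusted p = 0.0889, edgeR). Of the 148 genes tracked over every alternative, the others with a value in both had an adjusted p of 0.234 or more (edgeR).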

How the data were processed

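Messenger RNA libraries (KAPA Hyper Prep, per the labels' protocols) were processed with bcl2fastq, Trimmomatic, HISAT2 and featureCounts on mm10, per the submitters' processing notes; no version, annotation or strand setting is stated there, so overlapping and antisense genes cannot be told apart. The authors deposited whole-number counts per gene, not normalised, and FPKM values, from which only the gene lengths were derived. Of the 27178 Entrez identifiers, 25274 were named through RefSeq (GRCm38.p6), 18 through GENCODE and 1886 not at all. The 4 libraries were fitted with edgeR 4.0.16 (R 4.3.3): filterByExpr, TMM (0.993 to 1.013), the two-sided quasi-likelihood F-test and Benjamini-Hochberg adjustment over 13758 genes at 0.05. SE is the absolute log2 fold change over the square root of F. DESeq2 1.42.0 was an alternative, and gave no adjusted p to 5025 of these genes. The difference between experiments was an interaction in a fit of all 8 libraries. Lists and named genes were chosen with earlier results of these data known: Lockd, Cdkn1b, the smallest p and largest fold changes among genes of at least 5 CPM on average whose groups were separated, DESeq2 calls, and up to 4 members of a list by p. Ndc80, Bub3, G2e3, Psrc1 and others marked in the text were added after their values were seen. Some genes are not reported here. Where nothing says that libraries came from separate litters, p-values measure the spread between these libraries, which may be technical.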

Additional observations from a re-analysis of the deposited data

Results flagged for a closer look

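Lockd differed between the experiments. The log2 fold change was −1.11 after the shRNA and −8.12 in PlyA-KI, a difference of 6.98 (SE 0.47, adjusted p = 3.1e-05, edgeR), with 114, 112, 65 and 45 counts in control 1, control 2, shRNA 1 and shRNA 2, 871 and 1139 counts in wild type, and 4 and 2 in PlyA-KI. Erdr1, named after its value was seen, differed the other way by −5.24 (SE 0.54, adjusted p = 0.00226, edgeR). It was at 288 and 288 CPM in control and at 442 and 364 CPM in shRNA (log2 fold change 0.50), and at 0.356 and 0.147 CPM in wild type and 8.30 and 18.4 CPM in PlyA-KI (log2 fold change 5.75). The strains of the experiments differ, and the part of strain in the difference was not tested. Both genes were called under each of the 10 alternatives of that test, with adjusted p of at most 0.000293 and 0.0238. Groups of 2 libraries allow no search for a library that stands apart within a group.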

How the results depend on the processing

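Against 0 calls in edgeR, DESeq2 called 52 genes, no filter on low counts 184, a fit of all 8 libraries 53, the replicate block 161, and fits without 1 library 18 to 133, while RLE size factors called 0. At an unadjusted p under 0.05 the count was 1033, and 1565 with all 8 libraries, 1675 with the replicate block and 720 to 1361 without 1 library. Genes with separated groups numbered 4798, and 8607 to 9794 without 1 library, since fewer libraries separate more often. Calls for a difference between experiments numbered 2, and 61 with the replicate block and 2 to 8 without 1 library. The deviations of control 1 and shRNA 1 correlated at 0.22 over all genes tested and at 0.35 over 10763 of a mean of 5 CPM or more. The replicate numbers are not stated to mark shared litters or days, so whether they pair the libraries is unknown. Of 148 genes tracked over every alternative, Cdkn1b and Gria2 turned sign: without 1 library Cdkn1b ran from −0.13 to 0.091 (0.03 without shRNA 1, the highest without control 2) and Gria2 from −0.0034 (without shRNA 2) to 0.72. Of the genes added after their values were seen, Map2k2, Canx, Pdia3, Kif5b, Kif5c and Dync1i2 were among those that also turned sign without 1 library. Of 33 lists with an absolute median of 0.1 or more, 6 turned sign without 1 library: microglia (0.18) to −0.54 without control 2, histones (−0.26) to 0.06 without control 1, zinc finger genes (−0.11) to 0.02 without control 2, ribosomal proteins (−0.12) to 0.01 without shRNA 2, and intermediate filaments (−0.20) and the unfolded protein response (−0.10) to 0.01 without control 1. The cause was not tested. With 2 libraries a group, lone samples in such fits are assumed to vary like the others.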
